A study of Homo sapiens with 12 samples.

Results

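MDA-MB-468 is a basal-like breast cancer cell line, and the data described here are its 4 RNA-seq libraries out of the 12 of the series. The 2 libraries titled RP19 KD came from cells in which the lincRNA LINC01956, the target called RP19 in the titles, was knocked down, and were compared with the 2 titled LNA NS, from cells given a non-targeting oligonucleotide. The members were chosen by their titles alone. The labels name no transgene, selected clone or drug in any library. Cells were seeded with a transfection mix of LNA NS or of LNA1 and LNA2 together at a final 50 nM, got fresh medium after 6 h and were collected at 24 h, and the polyadenylated fraction of their RNA was sequenced with strand-specific libraries. An LNA is a short antisense oligonucleotide with locked nucleotides that directs RNase H to the RNA it pairs with. The control was 1 non-targeting LNA, so what LNA1 and LNA2 do through their sequence alone and through the loss of the lincRNA cannot be told apart here. The other 8 libraries, 4 of SUM149PT and 4 of HCC38, were used to ask which changes were particular to MDA-MB-468. Those lines are also basal-like and got the same oligonucleotides at the same dose and times. By the paper's methods each line grew in a different medium, HCC38 in RPMI and SUM149PT with added insulin and hydrocortisone. A response that differs between lines therefore cannot be told apart from one that differs with the medium. The lines share no control library. The labels number the libraries of a group but do not say whether they came from separate cultures, and the p-values therefore cover the spread between these libraries only, which may be technical.

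MDA-MB-468 cells are known for a high level of the EGF receptor (EGFR) from extra copies of its gene, and for the loss of the tumor suppressors RB1 and SMAD4. EGFR signals through RAS to the kinase ERK and through PI3K to AKT and mTOR. ERK signaling is restrained by its own targets, among them the dual-specificity phosphatases (DUSP genes) and the Sprouty proteins (SPRY genes). Cells short of amino acids or under stress of the endoplasmic reticulum activate the integrated stress response, in which the transcription factor ATF4 switches on amino acid synthesis and transport.

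The RNA fitted the label of the line. EGFR (chromosome 7 of GRCh37, 55086710 to 55279321) was at 5056 and 6055 counts per 1000000 after TMM normalization (CPM, the unit of all levels below) in the LNA NS libraries, against 301 and 228 CPM in SUM149PT and 137 and 181 CPM in HCC38. RB1 had 0.960 and 2.5 CPM and SMAD4 0.604 and 0.425 CPM, both far below the other lines. The basal keratin gene KRT5 (2611 and 2329 CPM) and the epithelial adhesion gene EPCAM (383 and 394 CPM) were high. Counts in genes summed to 36675734 and 37509863 in the LNA NS libraries and to 42925325 and 41866542 in the knock-down libraries. Of the markers of other cells, the leukocyte gene PTPRC had at most 1 count per library, and the T cell genes CD3D, CD4 and CD2 and the B cell gene MS4A1 had none, but CORO1A (645 to 845 counts), CSF1R (452 to 611), VAV1 (415 to 503) and CD14 (298 to 504) of the same list were present in all 4 libraries.

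LINC01956 (chromosome 2 of GRCh37, 119524541 to 119592686, minus strand) was low in this line from the start. It had 29 and 23 counts in the LNA NS libraries and 1 count in each knock-down library. The log2 fold change was −4.75 (standard error 0.546, edgeR adjusted p = 3.7e-06). In CPM the LNA NS libraries held 0.796 and 0.611, whereas those of the other lines held from 10.7 to 15.1. EN1, the homeobox gene next to it, had 9.57 and 9.12 CPM in the LNA NS and 7.00 and 9.37 CPM in the knock-down libraries, and did not pass the test (log2 fold change −0.19, edgeR adjusted p = 0.347), although without knock-down replicate 2 it did (−0.42, edgeR adjusted p = 0.083). Of 15 genes tested within 1 Mb of the lincRNA, 3 rose and 5 fell, where 24.9% of all genes tested rose and 25.7% fell at an adjusted p under 0.1.

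In MDA-MB-468, 4306 of 21325 genes (20.2%) passed both limits for a deregulated gene, which were an adjusted p below 0.1 and over 2-fold in size; 1965 rose (9.21%) and 2341 fell (11.0%). By the first limit alone 50.6% of the genes tested passed. The split between directions moved with the scaling: rises were 45.6% of the calls here and 57.2% with upper quartile scaling, which shifted the median log2 fold change of all genes by 0.136. By the same limits 2265 genes (10.6%) were deregulated in SUM149PT and 1997 (9.36%) in HCC38. Among the rises of MDA-MB-468, 253 also passed in both other lines, 372 in SUM149PT only, 224 in HCC38 only and 1116 in neither. Among the falls the numbers were 382, 262, 255 and 1442. Missing the limits in another line does not show a difference between lines, which was tested by the interaction. The change in MDA-MB-468 differed from that in SUM149PT for 3246 genes (15.2%), above it for 1126 (5.28%) and below it for 2120 (9.94%), and from that in HCC38 for 5711 (26.8%). Rises and falls started from different levels: 63.3% of the rises but 19.9% of the falls had under 1 CPM with LNA NS, against 35.5% of all genes tested.

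**Figure D1:**
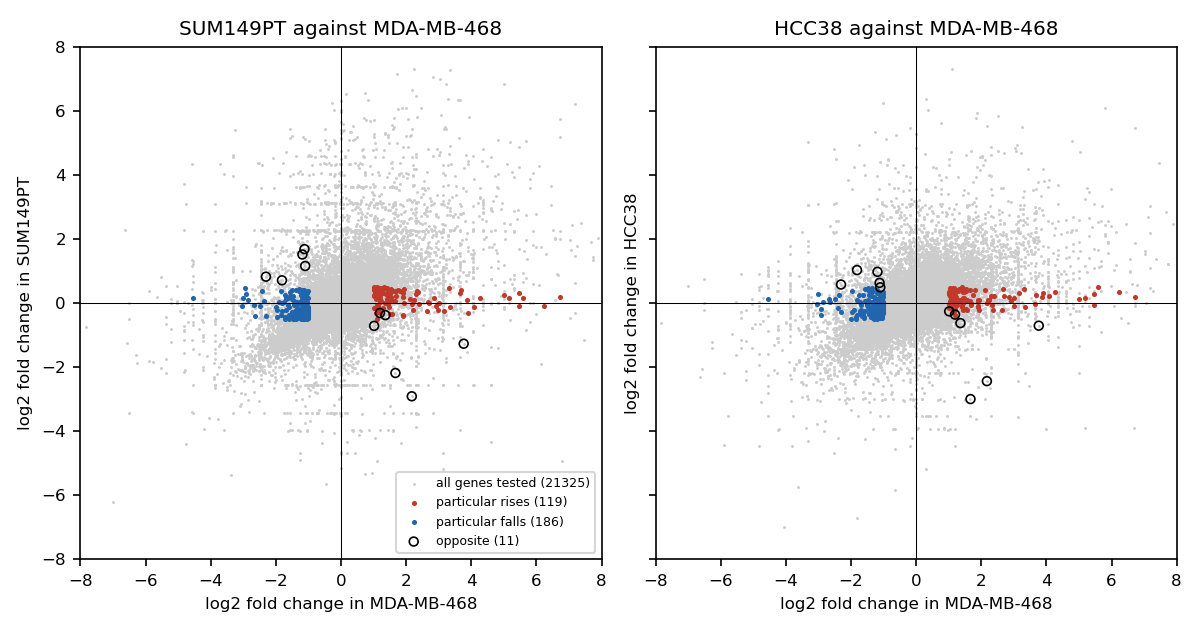
Log2 fold change (knock-down against LNA NS) in SUM149PT (left) and HCC38 (right) on the vertical axis against that in MDA-MB-468 on the horizontal axis; grey points are the 21325 genes tested (4 lie outside the axes), red and blue points the 119 rises and 186 falls particular to MDA-MB-468 and open circles the 11 opposite genes. The red and blue points lie along the horizontal axis because their limit of 0.5 in the other lines put them there.

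The largest falls were in genes of varied function that tended to be long. The 15 largest had a median span from start to end of the gene of 149086 bp. It was 68045 bp for all falls and 21770 bp for all genes tested. LOXL2, an extracellular lysyl oxidase that cross-links collagen, went from 224 and 238 CPM to 12.0 and 12.7 CPM, the largest fall among genes of at least 1 CPM on average (log2 fold change −4.23, standard error 0.104, edgeR adjusted p = 1.4e-12). Its log2 fold change was −2.01 in SUM149PT and −0.80 in HCC38, and the fall in MDA-MB-468 exceeded both (edgeR adjusted p = 3.7e-07 and 1.4e-09 for the differences). SORCS2, a sorting receptor of neurons, went from 12.2 and 13.9 to 0.598 and 0.918 CPM. SHANK2, a scaffold of the postsynaptic density, went from 45.3 and 58.0 to 4.46 and 4.03 CPM, and the lipase gene ABHD2 from 33.1 and 38.2 to 3.29 and 2.57 CPM. In each of these genes the fall was larger than in either other line. DDC, the decarboxylase that makes dopamine and serotonin, went from 13.7 and 14.4 to 1.15 and 1.27 CPM. SLC24A3, a sodium, potassium and calcium exchanger, went from 17.5 and 17.6 to 1.61 and 1.29 CPM and was at most 0.357 CPM in the libraries of the other lines.

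The largest rises began near 0. AOC3, a vascular amine oxidase, went from 0.439 and 0.425 to 16.5 and 20.1 CPM (log2 fold change 5.39, standard error 0.232, edgeR adjusted p = 2.7e-10), and in SUM149PT from 3.21 and 2.83 to 16 and 21.4 CPM. The rise in MDA-MB-468 exceeded that in both lines, although the levels reached in SUM149PT were alike. HCLS1, a cortactin-like gene of blood cells, went from 0.247 and 0.0797 to 6.81 and 6.40 CPM, and PYGM, the muscle glycogen phosphorylase, from 0.411 and 0.664 to 16.9 and 22.6 CPM. LTA, which encodes the cytokine lymphotoxin alpha, reached 2.28 and 3.11 CPM from 0.110 and 0.0797 CPM. SV2A, a synaptic vesicle protein, reached 1.86 and 3.30 CPM from 0.0549 and 0.133 CPM, against log2 fold changes of 0.58 in SUM149PT and 0.47 in HCC38. The RNA-binding protein gene RBM24 went from 0.165 and 0.319 to 3.01 and 4.14 CPM. Their neighborhoods shared a feature that the choice had not used. Of the 15 largest rises, 12 (80.0%) had a gene of at least 10 CPM ending within 20 kb upstream on the same strand. Of all genes tested 19.7% did, of the 1965 rises 29.4%, of the 2341 falls 15.1% and of the 15 largest falls 1. The part of reads running on from an upstream gene in these rises was not tested.

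Among genes of at least 100 CPM on average, the largest falls included central enzymes. PRMT1, the main arginine methyltransferase of cells, went from 293 and 267 to 40.7 and 37 CPM (log2 fold change −2.85, standard error 0.0983, edgeR adjusted p = 9.5e-11). HK1, which phosphorylates glucose, went from 291 and 296 to 68.9 and 63.6 CPM, and the WNT co-receptor gene LRP5 from 204 and 246 to 46.7 and 34.2 CPM. All of these also fell in SUM149PT and HCC38, by less than in MDA-MB-468 in each test of the difference. The rises included PRKAB2, a regulatory subunit of the energy sensor AMPK, from 42.4 and 41.1 to 167 and 212 CPM. EDN1, which encodes the vasoconstrictor endothelin 1, went from 49.0 and 51.6 to 154 and 177 CPM, and F2RL1, a receptor cut open by trypsin-like proteases, from 76.8 and 75.4 to 202 and 227 CPM. EDN1 and F2RL1 had log2 fold changes of −0.06 and 0.06 in HCC38, which differed from those in MDA-MB-468. The rise of F2RL1 was not shown to differ from that in SUM149PT (edgeR adjusted p = 0.139).

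Genes were called particular to MDA-MB-468 when they were deregulated there, when their change went beyond that of both other lines in the tests of the difference, and when their log2 fold change stayed within 0.5 of 0 in both. This held for 305 genes, 1.43% of those tested: 119 rises (0.558%) and 186 falls (0.872%). The rule used these contrasts, so the counts describe it. The limit is sharp: ALS2CL, with −0.499 in SUM149PT, was inside, and LINC01547, with −0.502 in HCC38, was outside. With a limit of 1 there were 803 and with none 1158 such genes. The count rests most on one library: without knock-down replicate 2 of MDA-MB-468 it was 178, of which 164 were among the 305. On simulated counts for 20811 genes the rule found 32% of genes changed 2-fold in this line alone and 98% of those changed 4-fold. Changes near 2-fold were thus mostly missed in the simulation, in part by construction, because the rule asks for over 2-fold. It changed 50 genes at each size and none in the other lines, and left 20611 genes unchanged. In the data 50.6% of genes passed in this line and many also changed in the other lines. The shares recovered may therefore differ in the data. The changed genes were drawn from those of at least 1 CPM on average in every line. Recovery at lower levels was not tested. Protein-coding genes made up 106 of the 119 rises and 163 of the 186 falls. Median levels with LNA NS were 3.12 CPM for the rises and 26.7 CPM for the falls.

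The falls particular to MDA-MB-468 were led by a transcription factor. STAT6, which carries the signals of interleukin 4 and interleukin 13 to the nucleus (chromosome 12, 57489191 to 57525922), went from 81.4 and 85.7 to 15.1 and 11.2 CPM (log2 fold change −2.67, standard error 0.125, edgeR adjusted p = 4.6e-10). In SUM149PT it went from 225 and 215 to 212 and 209 CPM, and in HCC38 from 119 and 138 to 143 and 136 CPM, so that the groups overlapped in HCC38. KANK2, a regulator of cell adhesion sites, went from 79.4 and 90.7 to 13.8 and 13.6 CPM, with log2 fold changes of −0.40 in SUM149PT and 0.04 in HCC38. PADI2, which turns arginine residues into citrulline, went from 236 and 246 to 76.9 and 70.5 CPM, and stayed near 150 CPM in HCC38 (150.5 and 171 to 139 and 131 CPM). NDRG1, a gene induced by low oxygen and differentiation, went from 85.6 and 94.9 to 25 and 26.4 CPM, with a log2 fold change of 0.00 in SUM149PT. TACC2, a centrosomal protein, fell from 56.8 and 62.7 to 17.1 and 13.6 CPM. MCM3, a subunit of the replicative helicase, fell from 395 and 410.2 to 165 and 159.8 CPM. It was also lower after knock-down in the other lines, by less (log2 fold changes −0.45 and −0.41). TMEM45B and the zinc finger gene ZBTB7C fell too (log2 fold changes −2.41 and −1.76), but both were at most 1.30 CPM in the libraries of SUM149PT and HCC38.

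**Figure D2:**
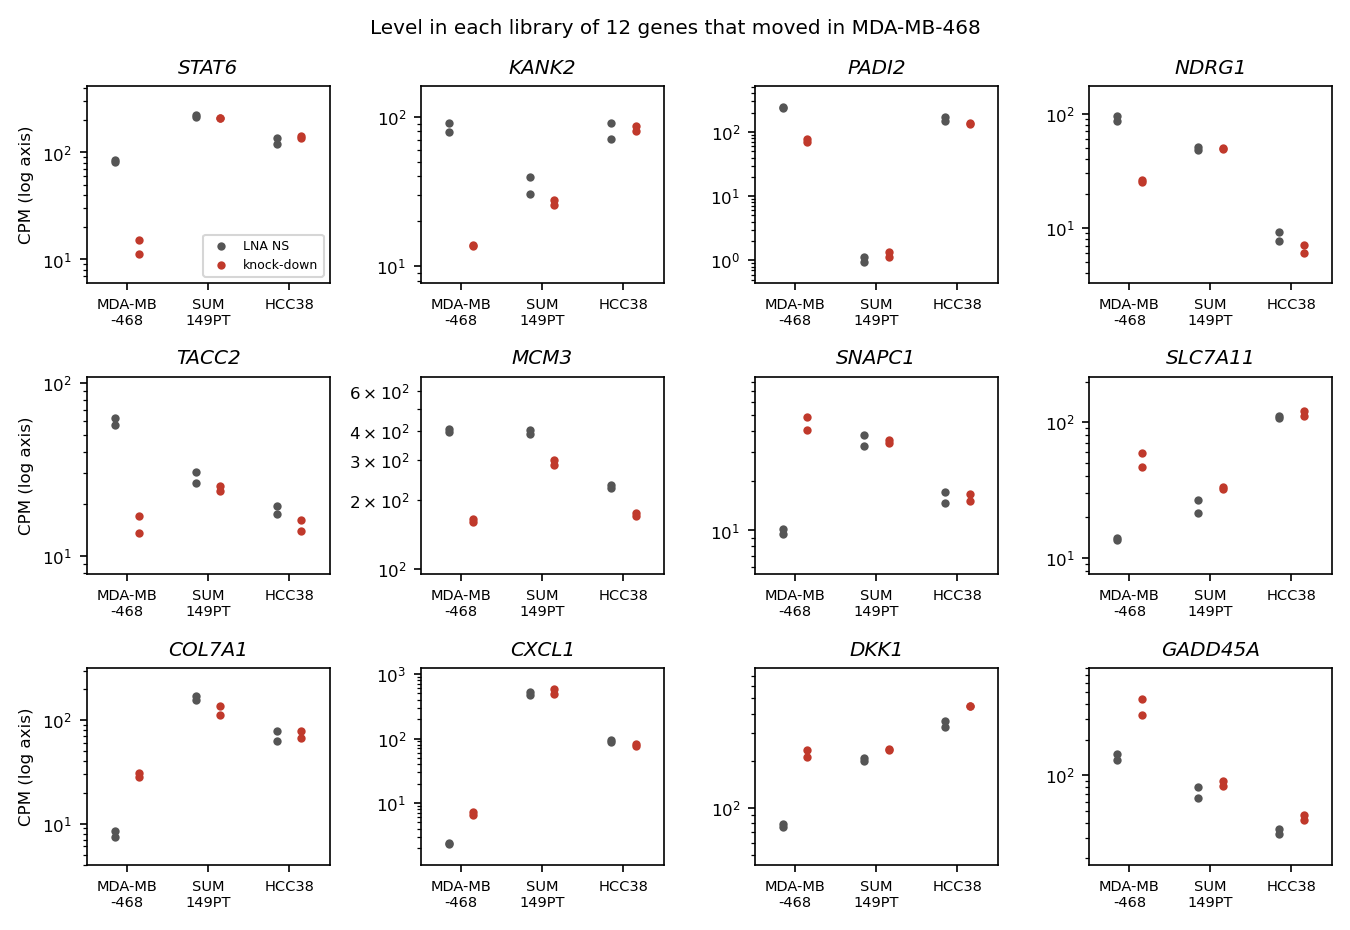
CPM on a log axis in each of the 12 libraries for 6 falls and 6 rises particular to MDA-MB-468, with LNA NS libraries in grey and knock-down libraries in red, by cell line. STAT6 drops from 81.4 and 85.7 to 15.1 and 11.2 CPM in MDA-MB-468 while all SUM149PT libraries lie between 209 and 225 CPM, and CXCL1 climbs in MDA-MB-468 to levels still far below those of the other lines.

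The rises particular to MDA-MB-468 included secreted signals and transporters. SNAPC1, a subunit of the complex that starts transcription of small nuclear RNA genes, went from 9.46 and 10.2 to 40.5 and 49.1 CPM (log2 fold change 2.19, standard error 0.135, edgeR adjusted p = 5.9e-09). Its log2 fold change was −0.02 in SUM149PT and −0.00 in HCC38. SLC7A11, the light chain of the cystine and glutamate exchanger, went from 13.9 and 13.5 to 46.5 and 59.0 CPM. DKK1, a secreted WNT inhibitor, went from 75.8 and 79.4 to 213 and 236 CPM, and the growth factor gene BMP4 from 6.17 and 6.54 to 17.9 and 16.7 CPM. COL7A1, the collagen of anchoring fibrils, went from 7.43 and 8.40 to 30.6 and 28.5 CPM, and TFPI2, an inhibitor of serine proteases in the matrix, from 6.80 and 6.99 to 22.1 and 22.1 CPM. CXCL1, a chemokine for neutrophils, rose from 2.30 and 2.39 to 6.40 and 7.30 CPM, well under the 480.1 and 524 CPM of SUM149PT with LNA NS. GADD45A, a stress sensor that slows the cell cycle, rose from 134 and 151 to 325 and 439 CPM. Its log2 fold change exceeded that in HCC38, the closer of the other lines, by 1.04. The rule allows small changes in the other lines, so GADD45A need not respond in MDA-MB-468 alone. The paper reports that GADD45 also went up after knock-down in both lines in which it was measured. That was a separate measurement at different time points, with qRT-PCR primers that do not name the GADD45 member. GPX8, a peroxidase of the endoplasmic reticulum, DNAJA4, a co-chaperone of Hsp70, ERCC4, a nuclease of DNA repair, PRSS22, a serine protease, OLR1, a receptor for oxidized lipoprotein, and SYBU, a linker of vesicles to kinesin, also rose (log2 fold changes 1.57, 1.67, 1.74, 1.53, 1.47 and 1.46). The structural genes DDN of podocytes and dendrites and MYH3 of embryonic muscle rose from at most 0.247 CPM to between 1.91 and 3.27 CPM. As particular genes OLR1 was kept in 16 and MYH3 in 18 of 24 alternatives, the other rises named here in at least 22.

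Most of these rises started below the other lines. Of the 119 rises, 88 (73.9%) had a lower mean with LNA NS in MDA-MB-468 than in both SUM149PT and HCC38, against 34.6% of all genes tested and 43.7% of the 1965 rises. Of the 186 falls, 96 (51.6%) had a higher mean than in both, against 34.2% of all genes and 47.6% of the 2341 falls. The 2 control libraries enter both the fold change and this level, so the counts are a description. DNAJA4 shows the pattern, with 1.84 and 2.21 CPM against 70.9 to 133 CPM in the LNA NS libraries of the other lines. SYBU and GADD45A go against it, being highest in MDA-MB-468.

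In 11 genes (0.0516%) the change passed in MDA-MB-468 and passed in the opposite direction in both other lines. IL11, a cytokine of the interleukin 6 family, fell from 1.23 and 2.23 to 0.276 and 0.424 CPM, and rose in SUM149PT from 15.9 and 16.9 to 28.1 and 30.1 CPM and in HCC38 from 18.7 and 17.5 to 26.2 and 27.9 CPM. HMGA2, a chromatin protein of embryonic cells, rose from 3.51 and 4.97 to 9.96 and 11.9 CPM and fell in SUM149PT (log2 fold change −0.38) and HCC38 (−0.63). PRSS23, a secreted serine protease, rose from 56.6 and 58.5 to 124 and 139.8 CPM with log2 fold changes of −0.31 and −0.36 elsewhere, and was also among the 305 genes because those are within 0.5 of 0. QRICH2, a gene of the sperm tail, fell from 33.9 and 32.3 to 16.4 and 14.5 CPM with log2 fold changes of 1.16 in SUM149PT and 0.49 in HCC38. In all 4 genes the groups did not overlap in any line. The choice asks for a pass in every line, which makes this likely beforehand. In MDA-MB-468 the groups did not overlap in 69.8% of all genes tested. Among deregulated genes this held for 1948 of the 1965 rises and 2325 of the 2341 falls. The number of opposite genes was 5 among the genes with at least 10 counts in every library.

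EGFR, the most abundant receptor gene of its family here, fell from 5056 and 6055 to 2967 and 2634 CPM (log2 fold change −0.99, standard error 0.158, edgeR adjusted p = 9.2e-05), just short of 2-fold. The difference from HCC38, where the log2 fold change was −0.10, passed (edgeR adjusted p = 0.010) and that from SUM149PT, with −0.68, did not (0.440). Its relatives did not move with it: ERBB3 rose from 80.1 and 81.9 to 115 and 118 CPM, and ERBB2 overlapped between the groups, at 60.7 and 69.7 CPM with LNA NS and at 61.9 and 55.2 CPM with the knock-down. In the list of receptors and ligands, with 16 members measured, 4 rose (25%) and 3 fell (18.8%), near or below the shares of all genes, and 5 fell without knock-down replicate 2. The ligand gene HBEGF rose from 5.65 and 6.22 to 19.7 and 26.1 CPM, as it did in the other lines (log2 fold changes 1.51 and 1.57, with no difference past the test). NRG4, a ligand of ERBB4, rose from 2.80 and 1.83 to 5.32 and 6.90 CPM, a rise particular to MDA-MB-468 that was kept in 15 of 24 alternatives. TGFA (log2 fold change −0.30) and EGF (−0.60) fell slightly, calls that some alternatives end.

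**Figure D3:**
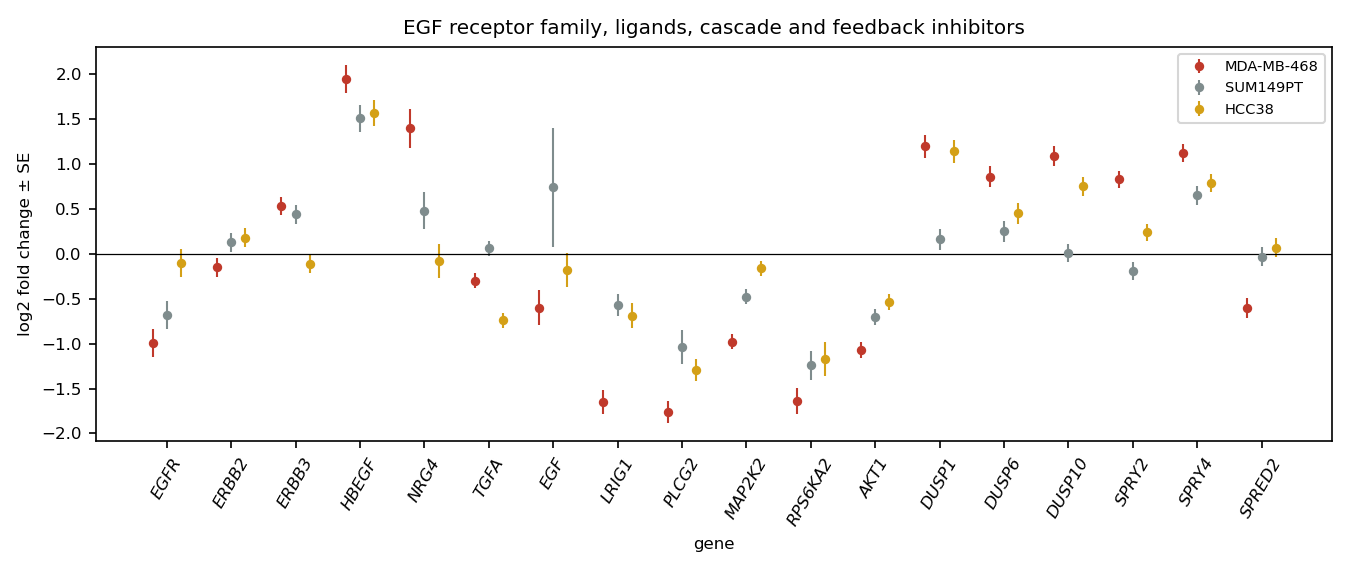
Log2 fold change with its standard error for 18 genes of the EGF receptor family, its ligands, the downstream cascade and its feedback inhibitors, in MDA-MB-468 (red), SUM149PT (grey) and HCC38 (yellow). In MDA-MB-468 the receptor and cascade genes EGFR, PLCG2, MAP2K2, RPS6KA2 and AKT1 lie at −0.98 or below, as does the feedback gene LRIG1, whereas the phosphatase and Sprouty genes DUSP1, DUSP6, DUSP10, SPRY2 and SPRY4 at 0.83 or above.

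Downstream of the receptor, cascade genes fell and feedback genes rose. Of the 31 measured genes of the EGFR, RAS and ERK cascade 20 fell and 5 rose, with a median log2 fold change of −0.47 (−0.21 in SUM149PT, −0.15 in HCC38), while 25.7% of all genes tested fell and 24.9% rose at an adjusted p under 0.1. In 6 members the change was below that of both other lines and in none above both. PLCG2, a phospholipase that makes second messengers, fell from 59.7 and 63.6 to 19.9 and 16.4 CPM. The ERK kinase MAP2K2 fell from 176 and 169 to 88.1 and 86.8 CPM, and RPS6KA2, a kinase activated by ERK, from 69.5 and 87.2 to 27.1 and 23.2 CPM. Of the 25 feedback inhibitors 15 rose and 4 fell (median 0.46, against 0.16 and 0.08). DUSP1 rose from 8.72 and 8.72 to 19.1 and 20.9 CPM, DUSP6 from 11.5 and 12.1 to 19.5 and 23.3 CPM and DUSP10 from 10.2 and 9.94 to 22.5 and 20.4 CPM. SPRY4 rose from 21.5 and 23.4 to 49.5 and 48.3 CPM. SPRY2 rose from 43.8 and 48.3 to 78.7 and 84.9 CPM, with a log2 fold change of −0.19 in SUM149PT and 0.24 in HCC38, and differed from both, as did the phosphatase gene DUSP2, which rose from 15.2 and 15.9 to 32.4 and 31.5 CPM. LRIG1, a transmembrane protein that removes EGFR from the surface, went the other way, from 59.9 and 68.0 to 21.9 and 18.8 CPM, and SPRED2, an inhibitor of RAF activation, fell with a log2 fold change of −0.60. Of 37 genes of the PI3K, AKT and mTOR pathway 17 fell and 7 rose. RPTOR, a subunit of mTORC1, fell from 58.6 and 64.3 to 13.1 and 10.8 CPM, TSC2, an inhibitor of that complex, from 109 and 119 to 29.2 and 21.3 CPM and the kinase gene AKT1 from 251 and 275 to 131 and 119 CPM. The related kinase gene SGK1 rose from 14.4 and 15.4 to 34.8 and 41.8 CPM. All of these differed from both other lines.

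The integrated stress response rose. Of its 33 genes 22 rose (66.7%) and 7 fell (21.2%), where 24.9% of all genes tested rose and 25.7% fell. The median log2 fold change was 0.80 (0.33 in SUM149PT, 0.30 in HCC38). In 8 genes the change was above that of both other lines and in 0 below both. ASNS, which makes asparagine, went from 45.0 and 39.1 to 155 and 187 CPM (log2 fold change 2.02, standard error 0.135, edgeR adjusted p = 1.3e-08), against 0.96 and 1.38 in the other lines. CHAC1, which degrades glutathione, went from 13.3 and 14.1 to 55.0 and 61.3 CPM, and ATF3, a transcription factor downstream of ATF4, from 24.8 and 28.9 to 78.9 and 102 CPM. SLC3A2, the heavy chain that pairs with SLC7A11 and other amino acid carriers, went from 606 and 598 to 1497 and 1761 CPM. Both chains of the cystine exchanger thus rose, the light chain in this line alone by the rule above. The list of genes of endoplasmic reticulum chaperones and the unfolded protein response had 12 rises (44.4%) and 4 falls (14.8%) among 27.

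The promoters of 2 of these genes and of CXCL1 are shown for the elements that their known activators bind, as 250 bases before and 50 after the start site in RefSeq (GRCh38.p14). ASNS is at chr7:97872359-97872658 on the minus strand, CHAC1 at chr15:40953221-40953520 and CXCL1 at chr4:73869143-73869442, both on the plus strand. Capitals mark TGATGNAA, the letters of the amino acid response element bound by ATF4, read on the opposite strand in CHAC1, and in CXCL1 GGANTTTCC, a form of the κB site bound by NF-κB.
ASNS: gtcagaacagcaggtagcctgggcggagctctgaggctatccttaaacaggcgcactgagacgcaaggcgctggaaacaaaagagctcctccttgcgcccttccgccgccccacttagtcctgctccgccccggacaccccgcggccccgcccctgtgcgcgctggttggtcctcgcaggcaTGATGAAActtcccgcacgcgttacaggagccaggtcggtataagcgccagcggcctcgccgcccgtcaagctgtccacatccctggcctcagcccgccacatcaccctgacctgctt
CHAC1: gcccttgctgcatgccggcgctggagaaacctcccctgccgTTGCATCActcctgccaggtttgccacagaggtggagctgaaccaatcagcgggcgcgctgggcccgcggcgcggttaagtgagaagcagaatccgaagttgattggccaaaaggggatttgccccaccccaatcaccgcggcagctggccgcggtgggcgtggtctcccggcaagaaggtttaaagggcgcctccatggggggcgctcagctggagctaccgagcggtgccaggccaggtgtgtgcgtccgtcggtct
CXCL1: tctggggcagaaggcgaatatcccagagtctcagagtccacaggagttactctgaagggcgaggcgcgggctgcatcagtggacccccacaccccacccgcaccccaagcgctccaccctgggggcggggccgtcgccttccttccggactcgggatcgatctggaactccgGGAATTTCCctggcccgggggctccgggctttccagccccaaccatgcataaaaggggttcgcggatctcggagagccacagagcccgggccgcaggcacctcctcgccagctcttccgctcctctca
The first element was in 3.62% of 35116 promoters of this length, searched on both strands, which is 4.46% of genes. It was in those of 6 of the 27 integrated stress response genes with a promoter in the table and of 5 of the 19 that rose. The second was in 1.64% of promoters, or 2.01% of genes, and in those of 17 of 35 NF-κB response genes and of 8 of the 17 that rose, CXCL8 and TNFAIP3 included. The number of matches moved with the letters: with 1 more G in front 14 of the 35 genes had the κB element (0.558% of all promoters), with A at the open position as well 9 did (0.145%), and with the loosest form 21 did (11.3%). The AP-1 element TGACTCA was in 4.95% of promoters and in 1 of 18 AP-1 and immediate early genes, which had not risen. The elements were chosen with the changes known, and the 3 promoters were picked for their matches among those of 19 genes looked at. A match describes the letters and was not tested for binding.

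Genes of the NF-κB and TNF response rose in 19 (45.2%) and fell in 5 (11.9%) of 42 cases, against 24.9% and 25.7% of all genes tested. Their median was 0.46, against 0.34 in SUM149PT and 0.14 in HCC38. TNFAIP3, the inhibitor that ends NF-κB signaling, rose from 10.4 and 10.4 to 48.4 and 55.7 CPM. CXCL8, which encodes interleukin 8, rose from 4.42 and 5.24 to 27.3 and 39.9 CPM (log2 fold change 2.80, standard error 0.176, edgeR adjusted p = 7.4e-09) and RELB, an NF-κB subunit, from 35.1 and 28.6 to 89.0 and 100 CPM. In each of these 3 genes the rise exceeded that of both other lines; of the whole list the change was above both in 7 genes and below both in 4. Of 24 AP-1 and immediate early genes 20 rose and none fell, where 24.9% of all genes rose; their median was 0.69, between those of SUM149PT (0.61) and HCC38 (0.84). FOSB rose from 7.54 and 7.76 to 39.3 and 49.2 CPM, with a similar change in SUM149PT that the test did not separate. The neuronal early gene ARC rose from 0.192 and 0.213 to 2.55 and 2.54 CPM, more than in either other line. Of 49 p53 targets 27 rose and 10 fell, among the rises PMAIP1, which promotes apoptosis, from 16.3 and 16.8 to 41.4 and 60.9 CPM and the decoy receptor gene TNFRSF10D from 9.46 and 10.6 to 42.1 and 48.5 CPM. Interferon-stimulated genes rose in 23 (13 without LNA NS replicate 2) and fell in 3 of 44 cases, with medians of 0.35 here, 0.46 in SUM149PT and 0.33 in HCC38. In 5 of them the change in MDA-MB-468 was below that of both other lines and in none above both.

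Cell cycle genes split by phase. Of 57 genes of the G2/M and mitotic phases 36 rose (63.2%) and 8 fell (14.0%), where 24.9% of all genes tested rose and 25.7% fell. The median was 0.39 against 0.21 in SUM149PT and −0.29 in HCC38, where 2 rose and 32 fell. The kinase gene NEK2 rose from 56.2 and 54.3 to 125 and 146 CPM, ASPM, which organizes spindle poles, from 66.2 and 67.5 to 156 and 182 CPM and the microtubule gene CKAP2 from 52.2 and 51.0 to 109 and 138 CPM. In HCC38 the log2 fold change of CKAP2 was −0.36. In 10 genes of the list the change in MDA-MB-468 was above that of both other lines and in 3 below both. Of 66 E2F targets of the G1/S transition and replication 34 fell (51.5%) and 15 rose (22.7%, near the share of all genes). Their median was −0.26, against −0.28 in each other line. PRIM2, a subunit of the primase, fell from 28.6 and 24.4 to 4.69 and 4.54 CPM, POLE, the leading strand polymerase, from 149.8 and 172 to 40.2 and 35.4 CPM and TFDP1, the partner of E2F proteins, from 323 and 373 to 80.7 and 84.3 CPM. E2F1 itself fell with a log2 fold change of −0.58, a call that not all alternatives kept. Of 8 genes of the E2F family 4 rose and 2 fell, with a median of 0.12, and none was deregulated. That balance turned in 2 of 26 alternatives. From the RNA-seq of this series the paper reports no significant change in the RNA of any E2F family member after knock-down. It shows a fold change for each line with the mean over lines. The counts here are of MDA-MB-468 alone at an adjusted p under 0.1, so they are not like for like. CDKN2B, an inhibitor of the kinases CDK4 and CDK6, rose from 24.1 and 22.5 to 61.6 and 79.1 CPM and was at most 0.108 CPM in the libraries of the other lines.

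Of 36 collagens and laminins 18 fell (50%, against 25.7% of all genes tested) and 3 rose, among the falls COL18A1 (71.0 and 80.3 to 23.0 and 20.4 CPM) and COL4A4 (7.35 and 8.19 to 0.966 and 0.753 CPM), both basement membrane collagens. The matrix glycoprotein gene TNC fell from 38.3 and 41.6 to 9.71 and 7.53 CPM and the integrin gene ITGB4 from 174 and 179 to 56.5 and 42.2 CPM; 12 of 26 integrin and focal adhesion genes fell and 4 rose. Of 30 proteases and inhibitors 12 rose (40%, against 24.9% of all genes) and 2 fell, and 16 did not pass, with a median of 0.49 against 0.07 in SUM149PT and 0.16 in HCC38. SERPINB2, an inhibitor of plasminogen activators, rose from 3.46 and 3.64 to 18.3 and 25.1 CPM. The protease gene MMP7 rose from 15 and 13.3 to 30.4 and 32.9 CPM and the tumor suppressor gene SERPINB5 from 16.5 and 13.9 to 31.8 and 36.1 CPM, the latter particular to MDA-MB-468. Among 17 genes of lysyl oxidation and collagen processing 4 rose and 7 fell. Against the fall of LOXL2, LOX rose from 3.48 and 3.69 to 6.44 and 12.1 CPM, with a log2 fold change of −0.53 in SUM149PT and −0.06 in HCC38, both different from the 1.37 here. The lysyl hydroxylase genes PLOD1 and PLOD3 and the procollagen protease gene BMP1 fell (log2 fold changes −0.80, −1.08 and −0.97), and the collagen chaperone gene SERPINH1 rose (0.44) where it was lower in the other lines (−0.19 and −0.12).

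Of 41 WNT genes 13 rose (31.7%) and 16 fell (39.0%), a balance that turned in 3 of 26 alternatives. Of all genes tested 24.9% rose and 25.7% fell. TCF7, a transcription factor of the pathway, fell from 38.1 and 35.9 to 12.8 and 10.5 CPM, more than in the other lines, and the receptor gene FZD7 rose from 16.7 and 19 to 43.0 and 48.1 CPM. With LRP5 and DKK1, given above, a co-receptor fell and an inhibitor of co-receptors rose. Of 17 genes of fatty acid synthesis 11 fell and 2 rose. Falls were fewer in the other metabolic lists, with 12 of 28 genes of cholesterol synthesis (42.9%), 14 of 34 glycolytic and hypoxia-inducible genes (41.2%) and 13 of 26 NRF2 targets (50%), against 25.7% of all genes, and 7, 5 and 5 of these rose. In fatty acid synthesis the medians were close between lines, at −0.42, −0.36 and −0.38. Cytosolic ribosomal protein genes rose in 31 and fell in 3 of 78 cases with a small median of 0.17, but in 12 without LNA NS replicate 2 and 13 without knock-down replicate 2. Mitochondrially encoded mRNAs rose in 9 of 13 (median 0.31 here, 0.23 in SUM149PT, −0.10 in HCC38). That count rests on single libraries, being 2 without LNA NS replicate 2, 3 without knock-down replicate 2 and 5 without knock-down replicate 1. Their summed level was 40998 and 31927 CPM with LNA NS and 44772 and 43849 CPM with the knock-down. Genes of nuclear lncRNAs and snoRNA hosts rose in 13 and fell in 5 of 23 cases, and heat shock protein genes in 11 and 4 of 24. Other lists were mixed, with 18 rises and 16 falls of 39 TGF-β and BMP genes, 10 and 9 of 27 NOTCH genes, 11 and 9 of 25 Hippo genes and 10 and 9 of 25 tight junction genes. DNA repair and checkpoint genes had 14 rises and 20 falls of 61, core apoptosis genes 12 and 8 of 34, and RB axis regulators 4 and 8 of 16. Genes handling antisense oligonucleotides, RNase H among them, had 3 rises and 4 falls of 16, a balance that turned in 9 of 26 alternatives; without either LNA NS library of HCC38 there were 5 rises.

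**Figure D4:**
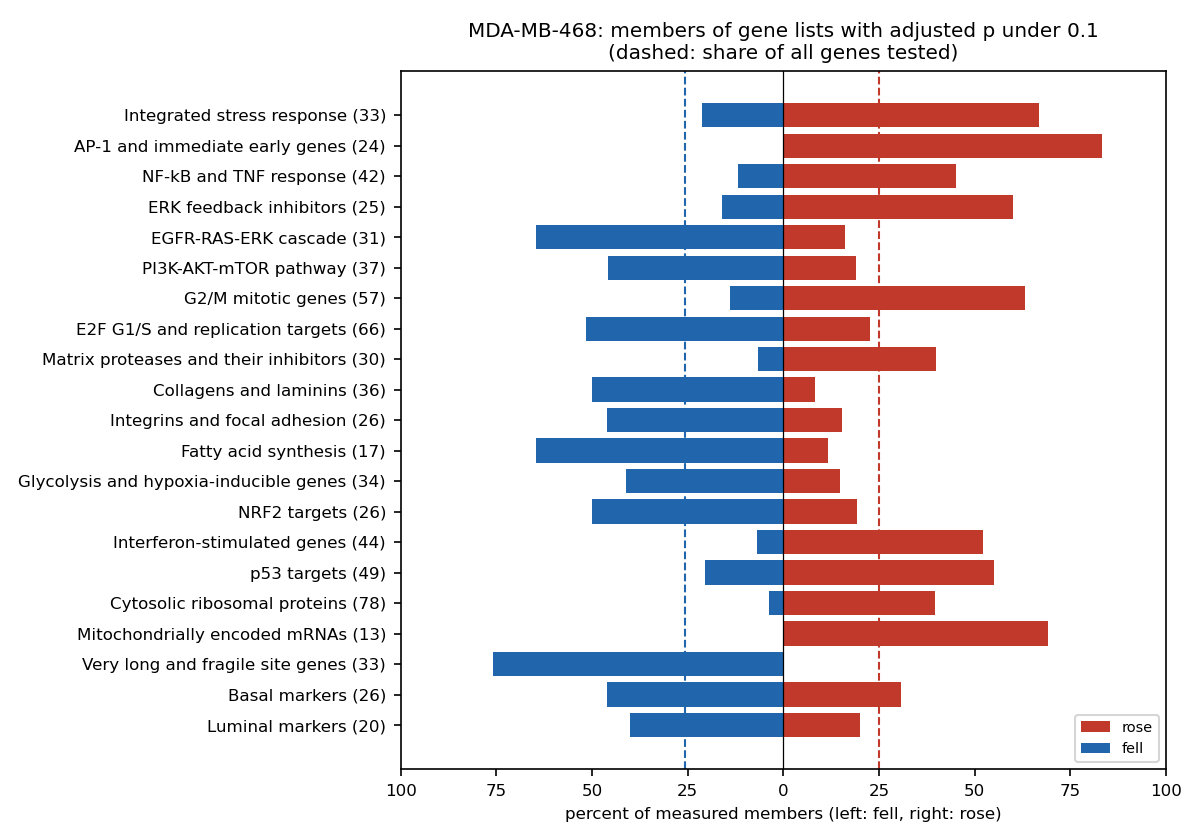
Percent of measured members of 21 gene lists that rose (red, to the right) or fell (blue, to the left) in MDA-MB-468 at an adjusted p under 0.1, with the number measured in brackets; dashed lines mark the 24.9% and 25.7% of all genes tested. AP-1 genes (20 of 24) and mitochondrially encoded mRNAs (9 of 13) have no bar to the left, and very long genes (25 of 33 fell) none to the right.

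Of 26 basal markers 8 rose (30.8%) and 12 fell (46.2%) and of 20 measured luminal markers 4 rose (20%) and 8 fell (40%), where 24.9% of all genes rose and 25.7% fell. KRT5 fell from 2611 and 2329 to 1929 and 1848 CPM and the basal keratin gene KRT6A rose from 41.3 and 38.3 to 65.0 and 70.6 CPM. SPDEF, a transcription factor of luminal cells at most at 0.178 CPM in the other lines, fell from 197 and 187 to 75.1 and 64.5 CPM. EPCAM rose to 504 and 586 CPM. VIM, which marks mesenchymal cells, rose from 15 and 13.1 to 30 and 29.5 CPM, a low level against 159.5 to 568 CPM in the other lines. Of 24 genes of the epithelial-mesenchymal transition 9 rose and 6 fell. In bulk RNA, fewer cells of a type and less RNA per cell cannot be told apart. Of 16 measured immune cell markers 5 rose, HCLS1 among them (3 without LNA NS replicate 1), and 3 fell; their summed level was 65.9 and 63.3 CPM with LNA NS and went to 67.2 and 58.9 CPM, and 6 of the 30 markers on the list had no count in any of the 4 libraries. Of 12 measured fibroblast, endothelial and erythroid markers 2 rose and 2 fell, with summed levels of 50.1 and 54.4 CPM against 47.6 and 49.7 CPM.

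The falls leaned to long genes, a feature of the annotation that the rule had not used. The median span from start to end of the gene was 68045 bp for the 2341 falls, 13739 bp for the 1965 rises and 21770 bp for all genes tested. Among 259 protein-coding genes of at least 1 CPM that span over 400 kb, 71.4% fell and 6.95% rose in MDA-MB-468, and their median log2 fold change was −1.28, compared with −0.62 for SUM149PT and −0.84 for HCC38. Below 10 kb, 25.2% of 2431 genes fell and 33.2% rose (median 0.08). The median was 0.13 between 10 and 30 kb, −0.01 between 30 and 100 kb, −0.35 between 100 and 200 kb and −0.85 between 200 and 400 kb, and the share that fell went from 26.4% to 34.0%, 49.9% and 68.8%. Of the 4478 fallen genes 3033 (67.7%) spanned under 100 kb, against 80.4% of the 12899 genes so grouped. The libraries told the same: relative to the mean of the LNA NS libraries, genes over 200 kb were below those of 30 kb or less by 0.93 and 1.05 on the log2 scale in the knock-down libraries of this line, with differences of −0.38 and −0.50 in SUM149PT, −0.57 and −0.80 in HCC38 and at most 0.11 in size in any LNA NS library. Of 33 measured genes listed as very long or at fragile sites 25 fell and none rose, with a median of −2.08 (−1.11 and −0.94 in the other lines). WWOX, at a fragile site and 1113268 bp long, went from 20.7 and 20.4 to 3.01 and 3.84 CPM, LRBA, which protects receptors from degradation, from 67.4 and 71.3 to 12.1 and 8.83 CPM, and FTO, an RNA demethylase, from 33.7 and 35.5 to 6.77 and 5.41 CPM. The fall of WWOX exceeded that in both other lines. The genes particular to MDA-MB-468 followed the same division less steeply, with median spans of 56152 bp for the 186 falls and 23288 bp for the 119 rises. When the trend with span was removed from the fit, 279 genes were particular. Of the 305 genes, 187 remained and the others dropped out. STAT6, PADI2, NDRG1, TACC2, SNAPC1, CXCL1 and BMP4 remained, all of them among the 43 genes kept in every alternative. Which of the other named genes remained is not given here. The part of gene span in the single changes given above was otherwise not tested.

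**Figure D5:**
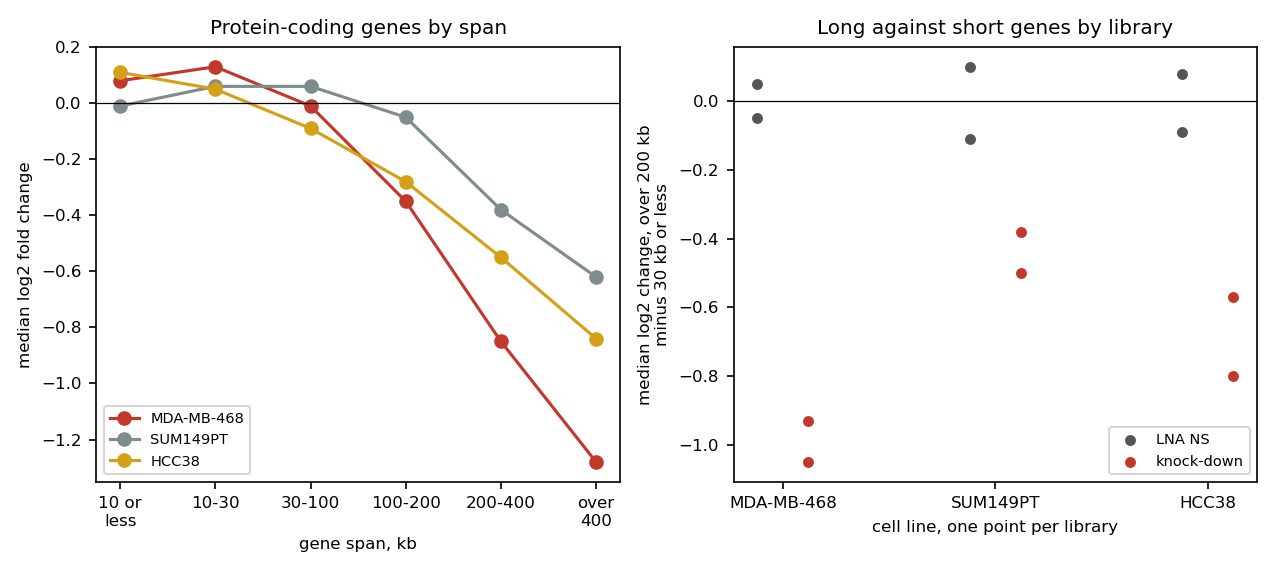
Left, median log2 fold change of protein-coding genes of at least 1 CPM by gene span in kb, in MDA-MB-468 (red), SUM149PT (grey) and HCC38 (yellow); right, the median log2 change of genes over 200 kb minus that of genes of 30 kb or less in each library, relative to the mean of the LNA NS libraries of its line. The red line falls to −1.28 beyond 400 kb, and the knock-down libraries of MDA-MB-468 (−0.93 and −1.05) lie lowest.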

How the data were processed

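The deposited files hold whole-number counts per Ensembl gene that the authors made with HTSeq 0.6.0 and did not normalize, for 63677 genes in each of 12 libraries on GRCh37 (hg19). The paper's methods name STAR as the aligner, but the submitters' processing notes name TopHat2 2.0.13, so which of them made these counts is not settled. No source at hand names the annotation release; it was not given in the sources used here. Reads in no single gene (45.5% to 51.4% of all counts in MDA-MB-468) stayed out of library sizes and tests.

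Analysis used edgeR 4.0.16, limma 3.58.1 and DESeq2 1.42.0 in R 4.3.3, and Python 3.11.15. filterByExpr (minimum count 10, minimum total 15) kept 21325 genes and TMM gave the scaling. A single quasi-likelihood model fitted the mean of each of the 6 groups with 6 residual degrees of freedom, since MDA-MB-468 alone has only 2 against 2, and differences between lines are contrasts of the same fit. Adjusted p-values are Benjamini-Hochberg over all genes tested. Deregulated means adjusted p under 0.1 and over 2-fold; list members "rose" or "fell" at adjusted p under 0.1 alone. Standard errors are of the log2 fold change. Levels are single libraries, 2 per group. Counts in genes ran from 36675734 to 42925325 per MDA-MB-468 library.

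Genes were named by rule: the lincRNA and EN1, the 15 largest rises and falls, the 20 among particular genes, 6 among opposite genes, 10 above 100 CPM, up to 4 per list, and the members of 4 short lists; the text gives those with the plainest pattern, and some genes the rule names are not reported here. The rule, the 47 lists (1505 entries, 11 without a match) and the groups of genes were chosen with earlier results of these data known. Positions are from a GENCODE annotation on GRCh37, which matched 55665 genes; the others held 0.636% of counts. On simulated counts of 20811 genes for the MDA-MB-468 comparison, 90% of 2-fold and 54% of 1.5-fold changes were called by adjusted p. The changed genes, 50 at each size, had at least 1 CPM on average in every line. Far fewer genes changed there than in the data, where 50.6% passed, so these shares may not hold in the data. The LNA sequences were not used here. Alternatives were other scalings and filters, DESeq2, a replicate block, each library left out, other thresholds, MDA-MB-468 alone and, chosen after seeing the data, a crossed block and a fit without the trend in gene span.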

Additional observations from a re-analysis of the deposited data

Results flagged for a closer look

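For 73 of the genes given in the report, the change in MDA-MB-468 differed from the change in both other lines (edgeR's test of the interaction, adjusted p under 0.1 in each). The values are the log2 fold change in MDA-MB-468 minus that of the other line closest to it, 2 libraries per group. Many of these genes were named because they moved most in MDA-MB-468, so the sizes are partly a product of that choice.

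Among the falls particular to MDA-MB-468 the difference was −2.60 for STAT6, −2.25 for TMEM45B, −2.24 for KANK2, −1.80 for ZBTB7C, −1.67 for TACC2, −1.46 for PADI2, −1.45 for NDRG1, −0.86 for MCM3 and −0.63 for PLOD3. Among the rises it was 3.68 for DDN, 2.82 for MYH3, 2.19 for SNAPC1, 1.87 for COL7A1, 1.5 for SLC7A11, 1.46 for GPX8, 1.45 for CXCL1, 1.32 for ERCC4 and OLR1, 1.30 for TFPI2, 1.29 for DNAJA4, 1.19 for BMP4, 1.15 for DKK1, 1.13 for SYBU, 1.10 for PRSS22, 1.04 for GADD45A, 0.92 for NRG4 and 0.73 for SERPINB5. The genes that moved against both other lines stood at −2.88 for IL11, −1.59 for QRICH2, 1.74 for HMGA2 and 1.51 for PRSS23.

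Genes that moved the same way in the other lines but by less included SORCS2 (−2.45), LOXL2 (−2.22), ABHD2 (−1.82) and SHANK2 (−1.76), and the enzymes and receptors PRMT1 (−0.92), LRP5 (−0.94) and HK1 (−0.83). The rises of this kind were AOC3 (2.78), RBM24 (1.67), PRKAB2 (1.36), SLC3A2 (0.79) and ASNS (0.65). SV2A stood at 4.15 and EDN1 at 0.57.

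In the EGFR pathway the difference was −0.97 for LRIG1, −0.51 for MAP2K2, −0.48 for PLCG2, −0.57 for SPRED2, −0.37 for AKT1, −1.05 for RPTOR, −0.78 for TSC2, 0.44 for SGK1, 0.65 for DUSP2 and 0.59 for SPRY2. TGFA, at −0.36, was below SUM149PT but above HCC38. Inflammatory and early genes stood at 1.88 for CXCL8, 1.12 for TNFAIP3, 1.02 for RELB and 1.73 for ARC. Cell cycle genes stood at −0.98 for PRIM2, −0.61 for TFDP1, −0.52 for POLE, 0.70 for NEK2 and 0.55 for CKAP2. Matrix genes stood at −1.59 for COL4A4, −0.89 for TNC, −0.72 for COL18A1, −0.51 for BMP1, 0.57 for SERPINH1 and 1.43 for LOX, and the others at −1.15 for TCF7 and −1.05 for WWOX.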

How the results depend on the processing

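Of 111 genes given in the text beside the lincRNA and EN1, none changed direction in any of 26 alternatives where it passed the test, and 102 kept their side of the threshold in all; TGFA, EGF, ERBB3, E2F1, EPCAM, SERPINH1, KRT5 and SPRED2 lost it in at least 1, mostly against a 1.5-fold null, and RB1 gained it in some. Among genes with at least 10 counts in every library, a smaller set, 2415 were deregulated (878 rises, 1537 falls) and 5 were opposite. Rises were 36.4% of these calls, against 45.6% as reported. Opposite genes were 7 at an adjusted p under 0.05, and 6 to 14 when a library was left out. Particular genes were 803 with a limit of 1 in the other lines and 1158 with none, and 178 to 397 when a library was left out; 43 of the 305 were kept in all 24 alternatives that gave the count. Against a 1.5-fold null 186 list members rose and 198 fell. EN1 ran from −0.42 to 0.00 without a library and passed without knock-down replicate 2 (−0.42). With the trend in span removed the median span of falls was 32441 bp, which follows from its construction. The balance of rises and falls turned in at least 1 alternative in 13 of 47 lists. Without 1 library (LNA NS or knock-down replicate 2 of MDA-MB-468, or LNA NS replicate 1) the smaller side of some lists shrank, to 5 falls in G2/M genes, 4 in the integrated stress response, and 3 rises in the EGFR cascade and NRF2 targets and 2 in glycolysis.

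The labels do not say whether replicate numbers pair the libraries. Between libraries of the same number, deviations from the group means correlated at −0.025 for MDA-MB-468, 0.129 for SUM149PT and −0.224 for HCC38. These values show no strong shared effect but cannot tell whether the libraries were paired. With a replicate block 4197 genes were deregulated and 271 particular; with the numbers of HCC38 crossed, 4350 and 325. Depth limits the lincRNA itself, with 52 counts before and 2 after knock-down, and intervals between 2 libraries a group are wide. The LNA set and the line-specific response cannot be told apart from sequence effects with 1 control LNA.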
